A study of Mus musculus with 58 samples.

Results

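The genes of the proteasome were described across normal liver and liver tumors of mice that had received adeno-associated virus (AAV), a gene transfer vector, soon after birth. Members were all genes whose symbol is Psma, Psmb, Psmc, Psmd or Psme followed by a digit and that had an array cluster carrying that symbol alone, without the immunoproteasome genes Psmb8 and Psmb9. The rule found 42 of 22180 genes, each read from its brightest such cluster. By function 16 belong to the core particle, 20 to the regulatory particle and its assembly, and 4 to other activators. The last 2, Psmc3ip and Psme3ip1, share only the letters of the rule and are given apart, so that counts below are over 40 genes. Psma4 was covered only by clusters with several symbols and was not analysed here.

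RNA of 29 normal livers and 29 liver tumors was hybridized to whole-transcript mouse gene arrays, to ask whether insertion of the vector contributed to liver cancer. Every mouse, the source of normal liver included, was an adult that had received the vector as a newborn, on a mixed background of 129/Sv, FVB/NJ and C57BL/6. The normal livers were labelled male for 20 arrays and female for 9, the tumors male for 17, female for 11 and without a sex for 1. Titles carry a -/- mark on 4 normal livers and 5 tumors and a +/- mark on 5 of each, with no gene named, and 1 marked normal liver also bears the letters GFP. Vector, dose and age in weeks are not given in the labels used here, no uninjected mice were among the samples, and normal liver therefore means non-tumor liver of injected mice. Normal livers 26 and 27, whose titles share a name but carry different marks, were counted as separate animals. So read, the titles name 39 animals. Of these, 18 gave an array of each tissue and are called pairs, and 1 gave 2 tumors (tumors 22 and 26). Numbers after tumor or normal liver only name an array.

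Values are log2 signals, and a difference of 1 is a doubling. Array medians lay between 6.72 and 7.15. The hepatocyte marker Alb, the albumin gene, had a mean of 13.7 ± 0.08 over normal livers and of 13.5 ± 0.59 over tumors (SD, n = 29 each). A pair of tumor arrays stood apart. Tumor 9 correlated least with the rest (mean r 0.873) and had the lowest Alb (10.47) and the highest level of the leukocyte gene Ptprc (12.43) of all arrays. Tumor 20 had the highest array median (7.15), a mean correlation of 0.911 and an Alb level of 13.63. In 7 arrays the X- and Y-linked genes went against the sex label. Results that rest on these arrays are given with and without them.

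The proteasome is the main machine for the degradation of ubiquitin-tagged proteins in the cytosol and nucleus. Its core particle is a barrel of alpha rings, which form the gate, around beta rings, which hold the cutting sites. The regulatory particle caps the barrel, with a base of ATPases that unfold the substrate and a lid that removes ubiquitin. When proteasome activity falls short, the transcription factor encoded by Nfe2l1 is known to raise many subunit genes together through antioxidant response elements, and interferon replaces some beta subunits with immune forms.

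Across the 40 genes, 15 were higher in tumors than in normal liver, 1 was lower and 24 did not pass the test (limma, adjusted p under 0.05 over all genes). Of all 22180 genes 17.9% were called higher and 14.3% lower, so 37.5% of the proteasome genes stood against a background of 17.9% on the higher side. The changes were small. They ran from -0.17 to 0.60 on the log2 scale, with a median of 0.17 against -0.02 over all genes, and no member passed a change of 1, a size called in 1.03% of all genes as higher and in 0.947% as lower. The members are bright genes, however, and 37 of 40 lay above the median gene in mean level. Among brighter genes only, 29.8% were called higher, and of the 37 members there 17 were. The change was above 0 in 36 of 40 members, beside 44.1% of all genes and 57.1% of the brighter ones. It was above 0 in 38 members with each array centred on its median (60.4% of all genes) and in 32 with quantile normalization (54.3%).

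**Figure D1:**
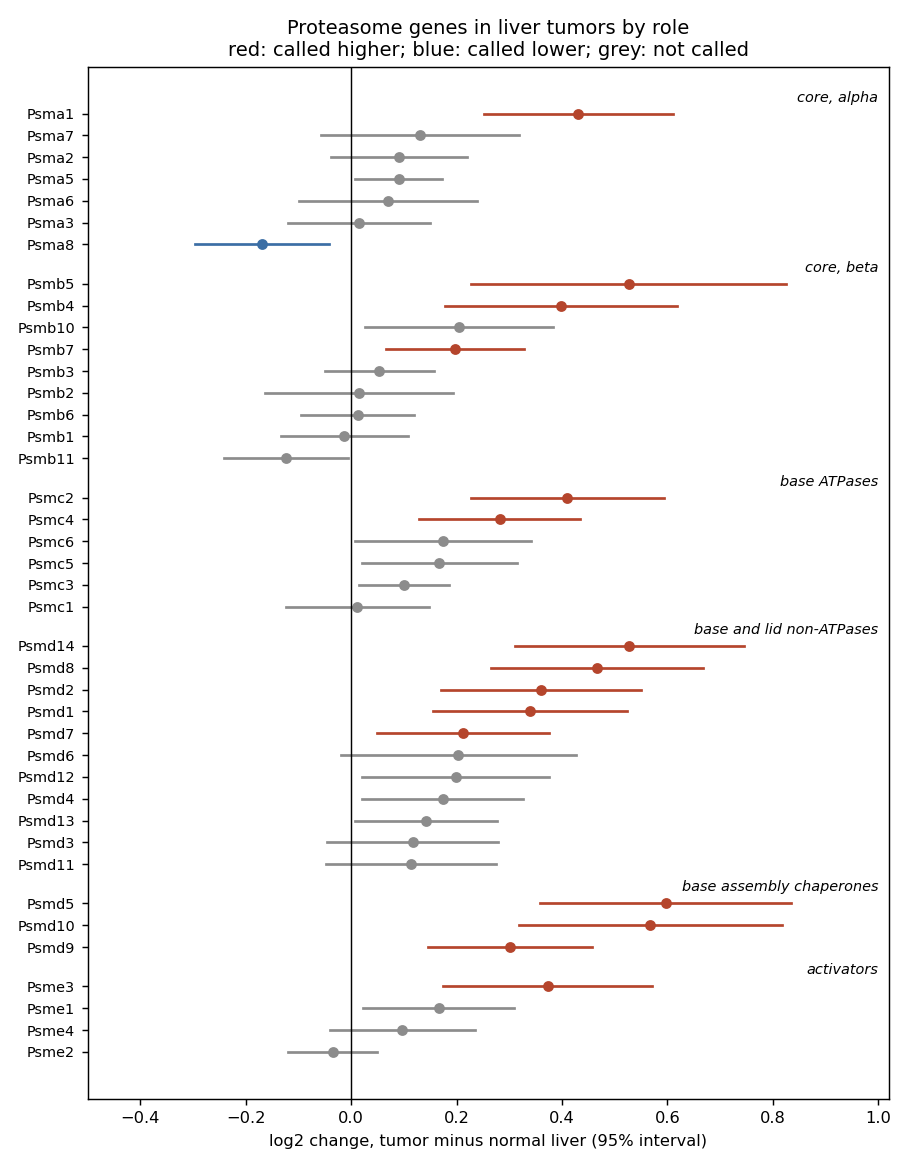
Log2 change between tumors and normal liver (horizontal axis) with its 95% interval for each of 40 proteasome genes (vertical axis), grouped by role. Red marks the 15 genes called higher and blue the 1 called lower. All 3 base assembly chaperones are red, while 11 of 16 core genes are grey.

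By part, in the core 4 of 16 genes rose and 1 fell (median change 0.08), a share of 25% higher that lies between the 17.9% of all genes and the 29.8% of the brighter ones. Among the 20 genes of the regulatory particle and its assembly 10, or 50%, rose and 0 fell (median 0.21). The 10 comprise 3 of 3 base assembly chaperones, 5 of 11 non-ATPases and 2 of 6 ATPases. Assembly genes of the core, in contrast, are outside its count and are given below. At an unadjusted limma p under 0.05, 16 of the 20 were higher and 0 lower. At that limit 21.5% of all genes and 33.6% of the brighter ones were higher. Of the 4 activators 1, again 25%, rose (median 0.13). The changes of all 20 regulatory genes were above 0, from 0.01 to 0.60, except that Psmc1 was below 0 with quantile normalization (-0.04), in the fit of the pairs (-0.03) and without the arrays against the sex label (-0.04). The difference between the parts was not tested.

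Of the alpha subunits, which build the outer rings and the gate, 1 of 7 rose (14.3%, below the share over all genes). Psma1 (cluster 17495297) had a lowest, median and highest log2 value of 9.28, 9.95 and 10.51 in normal liver and of 9.11, 10.41 and 10.89 in tumors. The ranges overlapped, but 8 of 29 tumors were above the highest normal liver and 1 was below the lowest. The mean went from 9.89 ± 0.36 to 10.32 ± 0.35 (SD, n = 29 each), a 1.35-fold difference (log2 change 0.43, SE 0.09, 95% interval 0.25 to 0.61, limma adjusted p = 0.000131), and the tumor was higher in 15 of 18 pairs. Psma5, which was dim, had a fitted change of 0.09 (SE 0.04, adjusted p = 0.0849), and that of Psma3 was 0.01 (SE 0.07, interval -0.12 to 0.15, adjusted p = 0.888). Psma2, Psma6 and Psma7 had changes of 0.09, 0.07 and 0.13 and were not called.

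Psma8, the alpha subunit known from the testis, was the member that fell. Its values were low throughout, 6.20, 6.48 and 6.81 (lowest, median, highest) in normal liver and 5.92, 6.26 and 7.50 in tumors, in the lower 29.2% of all genes by mean level. In tumors the spread was wider on both sides, with 9 tumors below the lowest and 2 above the highest normal liver. The mean went from 6.49 ± 0.17 to 6.32 ± 0.31 (SD, n = 29 each; log2 change -0.17, SE 0.06, adjusted p = 0.0346), and the tumor was lower in 14 of 18 pairs. The call was lost with each array centred on its median (-0.12, adjusted p = 0.161), and in a fit of the 18 pairs with a block for each animal (-0.18, adjusted p = 0.216).

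Of the beta subunits 3 of 9 rose (33.3%, near the 29.8% of brighter genes). The subunits with cutting sites were not all called, and the difference between them was not tested. Psmb5 (cluster 17306417), the chymotrypsin-like site and the target of the drug bortezomib, was at 9.83, 11.02 and 12.09 (lowest, median, highest) in normal liver and at 9.88, 11.80 and 12.43 in tumors. The tumors filled the upper part of the range of normal liver, and 5 were above it. The mean went from 11.07 ± 0.65 to 11.60 ± 0.56 (SD, n = 29 each), a 1.44-fold difference (log2 change 0.53, SE 0.15, interval 0.23 to 0.83, adjusted p = 0.00463), with the tumor higher in 13 of 18 pairs. Psmb7, the trypsin-like site, went from 9.48, 9.88 and 10.27 to 9.38, 10.06 and 10.56. In 7 tumors it was above the highest normal liver, and it was higher in 14 of 18 pairs (1.15-fold, log2 change 0.20, SE 0.07, adjusted p = 0.0156). Psmb6, the caspase-like site, was at 9.02, 9.37 and 9.68 in normal liver and at 8.95, 9.42 and 9.79 in tumors. Both groups covered nearly the same range, and the change was 0.01 (SE 0.05, interval -0.09 to 0.12, adjusted p = 0.885).

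Psmb4, a structural beta subunit, rose from 9.62, 10.33 and 11.21 to 10.03, 10.74 and 11.51 (lowest, median, highest). It was 1.32-fold higher (log2 change 0.40, SE 0.11, adjusted p = 0.00356), with the tumor higher in 12 of 18 pairs. Among structural subunits Psmb1, Psmb2 and Psmb3 had changes of -0.01, 0.01 and 0.05 and were not called. Psmb11, the thymus-specific subunit, was dim and had a change of -0.12 (SE 0.06, adjusted p = 0.102). Psmb10, which replaces Psmb7 in the immunoproteasome, was at 8.95, 9.71 and 10.41 in normal liver and at 8.62, 9.92 and 10.48 in tumors. Its change of 0.20 (SE 0.09, interval 0.03 to 0.38) did not pass the test (adjusted p = 0.0709), and without tumor 20, an alternative chosen after seeing the data, it did (0.25, adjusted p = 0.00943).

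**Figure D2:**
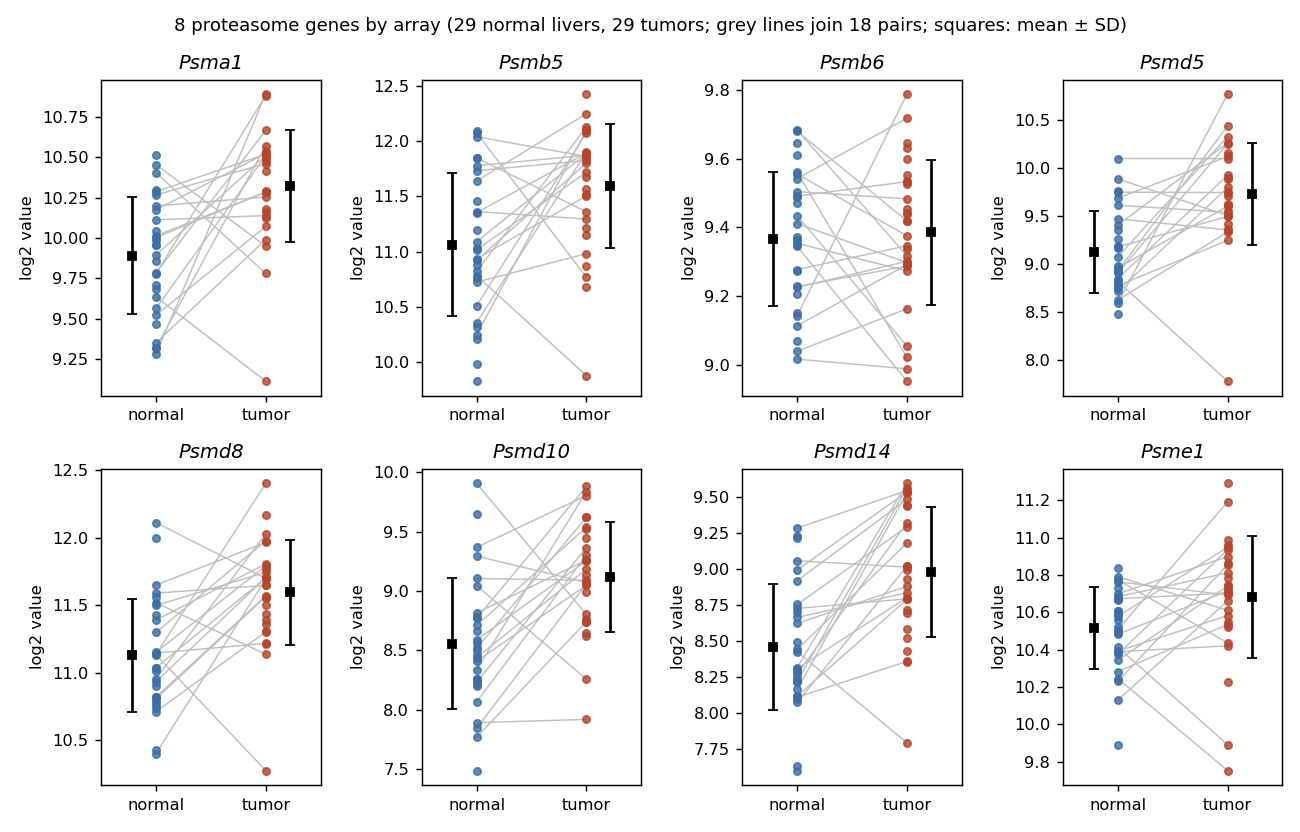
Log2 value of 8 proteasome genes in each array (circles, 29 normal livers and 29 tumors), with grey lines joining the 18 pairs and squares giving mean ± SD. Psmd14 rises in 16 pairs and Psmb6 in 8, and in every gene the groups overlap.

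The base of the regulatory particle has a ring of ATPases, of which 2 of 6 rose (33.3%, near the 29.8% of brighter genes). Psmc2 was at 9.44 ± 0.32 in normal liver and at 9.85 ± 0.40 in tumors, where it ran from 8.56 to 10.50 around a median of 9.91 (SD, n = 29 each). In 9 tumors it was above the highest normal liver, and in 15 of 18 pairs the tumor was higher (1.33-fold, log2 change 0.41, SE 0.09, adjusted p = 0.000342). Psmc2 has 2 clusters, and with their mean its change was 0.27 (adjusted p = 1.0e-04). Psmc4 was at 10.98 ± 0.29 in normal liver and 11.26 ± 0.30 in tumors (SD, n = 29 each), 1.22-fold higher (log2 change 0.28, SE 0.08, adjusted p = 0.00296) and higher in 14 pairs. Psmc3 (0.10, SE 0.04, adjusted p = 0.0674), Psmc5 (0.17, adjusted p = 0.0718) and Psmc6 (0.17, adjusted p = 0.102) did not pass. Psmc1 had a change of 0.01 (SE 0.07, adjusted p = 0.917).

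Of the 11 other structural subunits of base and lid, 5 rose (45.5%, against 17.9% of all genes and 29.8% of the brighter ones). Psmd14 (cluster 17371123) encodes the lid enzyme that cuts ubiquitin chains from a substrate as it enters. It was at 7.60, 8.31 and 9.28 (lowest, median, highest) in normal liver and at 7.79, 8.99 and 9.59 in tumors. The median tumor was above most normal livers, and 10 tumors were above all of them. The mean went from 8.46 ± 0.44 to 8.98 ± 0.45 (SD, n = 29 each), a 1.44-fold difference (log2 change 0.53, SE 0.11, interval 0.31 to 0.74, adjusted p = 0.000107), in 16 of 18 pairs. Only tumors 15 and 20 were below their normal liver, by -0.04 and -0.63, and tumor 9 was above it by 0.54.

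Psmd8, a lid subunit, went from 10.40, 11.04 and 12.11 to 10.27, 11.65 and 12.40. It was 1.38-fold higher (log2 change 0.47, SE 0.10, adjusted p = 0.000218), with the tumor higher in 15 of 18 pairs. The large scaffolds of the base, Psmd1 and Psmd2, to which ubiquitin receptors and shuttle proteins bind, rose 1.27-fold (by 0.34 in log2, SE 0.09, adjusted p = 0.00311) and 1.28-fold (0.36, SE 0.09, adjusted p = 0.00221), each in 12 of 18 pairs. Psmd7, the lid partner of Psmd14, rose 1.16-fold (0.21, SE 0.08, adjusted p = 0.0386), with 10 tumors above the highest normal liver, a call that was lost in 19 of 58 fits that each left out 1 array. Psmd4, a ubiquitin receptor, was at 8.73, 9.21 and 9.99 in normal liver and 8.61, 9.38 and 10.08 in tumors. Its change of 0.17 (SE 0.08, adjusted p = 0.0739) did not pass, although the tumor was higher in 14 of 18 pairs. Psmd3, Psmd6, Psmd11, Psmd12 and Psmd13 had changes between 0.11 and 0.20 and were not called, the smallest being that of Psmd11 (0.11, SE 0.08, adjusted p = 0.293).

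The 3 chaperones that assemble the base, which are absent from the finished particle, all rose. Psmd5 (cluster 17384322) had the largest change of the 40 genes. It was at 8.48, 8.98 and 10.10 (lowest, median, highest) in normal liver and at 7.78, 9.71 and 10.77 in tumors. The means were 9.13 ± 0.43 and 9.73 ± 0.53 (SD, n = 29 each), a 1.51-fold difference (log2 change 0.60, SE 0.12, interval 0.36 to 0.83, adjusted p = 6.81e-05). It was higher in 12 of 18 pairs, with differences from -1.04 in tumor 20 to 2.18 in tumor 5, and 7 tumors were above the highest normal liver. Psmd10, gankyrin, known as an oncoprotein of human liver cancer, was at 7.49, 8.50 and 9.91 in normal liver and at 7.92, 9.13 and 9.88 in tumors. No tumor was above the highest normal liver or below the lowest, so the rise lay within the normal range. The means were 8.56 ± 0.55 and 9.12 ± 0.46 (SD, n = 29 each), a 1.48-fold difference (log2 change 0.57, SE 0.12, adjusted p = 0.000271), with the tumor higher in 14 of 18 pairs. Psmd9 went from 8.05, 8.47 and 9.09 to 7.73, 8.82 and 9.35 and was 1.23-fold higher (0.30, SE 0.08, adjusted p = 0.00177), in 16 of 18 pairs.

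Of the activators, which open the core without the regulatory particle, Psme3 rose. It encodes the nuclear activator PA28 gamma and was at 8.40, 8.93 and 9.98 (lowest, median, highest) in normal liver and at 8.30, 9.49 and 10.11 in tumors. It was 1.29-fold higher (log2 change 0.37, SE 0.10, adjusted p = 0.00247), with the tumor higher in 14 of 18 pairs. Psme1 and Psme2 encode the partners of the activator that interferon induces. Psme1 was at 9.89, 10.56 and 10.84 in normal liver and at 9.75, 10.72 and 11.29 in tumors, and 9 tumors were above the highest normal liver. Its change was 0.17 (SE 0.07, interval 0.02 to 0.31) and did not pass (adjusted p = 0.0672), but it did with each array centred on its median (0.22, adjusted p = 0.0459). Psme2 was at 8.09, 8.45 and 8.76 in normal liver and at 8.07, 8.36 and 8.77 in tumors, with a change of -0.03 (SE 0.04, interval -0.12 to 0.05, adjusted p = 0.560). A brighter cluster names Psme2 together with other genes and was not used, so the Psme2 value is less certain. Psme4 had a change of 0.10 (SE 0.07, interval -0.04 to 0.23, adjusted p = 0.292). Of the genes apart, Psme3ip1 rose 1.18-fold (0.24, SE 0.07, adjusted p = 0.00357) and Psmc3ip had a change of -0.03 (SE 0.06, adjusted p = 0.698).

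Promoters are printed for some members, called and not called, that hold a searched motif. Of the 40 genes 33 matched the RefSeq promoter table (build GRCm38.p6, 250 bases before to 50 bases after each gene start), in 36 windows. The antioxidant response element, searched as TGACNNNGC on both strands, was in 6 member windows (16.7%) against 12.4% of all 32851 windows. It was in 2 of 13 genes called higher and in 4 of 20 others. The windows of Psmb5, which rose, and Psmb6, which did not, show that the letters occur in both. The windows of Psmc6 and Psme4 held the element too and are not printed. In the 4 sequences that follow, capitals mark this element. It starts 47 bases before the gene start in Psmb5 (chr14:54617946-54618245, minus strand), 9 bases before it in Psmb6 (chr11:70525107-70525406, plus strand), 31 in the base chaperone gene Psmd9 (chr5:123227940-123228239, plus strand), and 247, on the other strand, in the lid gene Psmd12 (chr11:107479278-107479577, plus strand).
Psmb5: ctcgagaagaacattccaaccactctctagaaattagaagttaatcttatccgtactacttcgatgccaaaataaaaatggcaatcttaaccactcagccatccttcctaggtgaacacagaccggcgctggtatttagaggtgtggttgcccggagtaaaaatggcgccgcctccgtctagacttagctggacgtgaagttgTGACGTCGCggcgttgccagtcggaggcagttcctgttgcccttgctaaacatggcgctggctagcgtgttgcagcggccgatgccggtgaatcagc
Psmb6: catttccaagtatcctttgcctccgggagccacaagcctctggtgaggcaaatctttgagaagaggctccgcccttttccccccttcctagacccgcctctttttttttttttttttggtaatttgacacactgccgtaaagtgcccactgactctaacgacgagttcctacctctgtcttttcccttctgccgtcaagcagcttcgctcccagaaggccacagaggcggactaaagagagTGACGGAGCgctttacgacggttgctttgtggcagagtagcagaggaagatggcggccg
Psmd9: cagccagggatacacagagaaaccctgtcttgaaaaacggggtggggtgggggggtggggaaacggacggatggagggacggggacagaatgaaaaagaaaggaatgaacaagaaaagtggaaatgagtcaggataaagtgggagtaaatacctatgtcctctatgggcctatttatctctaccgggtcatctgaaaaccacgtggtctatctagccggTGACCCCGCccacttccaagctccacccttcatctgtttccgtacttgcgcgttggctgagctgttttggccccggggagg
Psmd12: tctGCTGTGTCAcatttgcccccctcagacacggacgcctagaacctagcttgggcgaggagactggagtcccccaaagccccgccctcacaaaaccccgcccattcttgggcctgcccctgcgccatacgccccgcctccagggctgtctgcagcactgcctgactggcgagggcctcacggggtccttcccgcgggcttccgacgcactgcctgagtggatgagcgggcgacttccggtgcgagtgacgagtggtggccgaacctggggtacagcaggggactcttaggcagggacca

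The CCAAT box, searched as CCAAT on both strands, was in 13 member windows (36.1%) against 37.4% of all. It is shown in capitals for Psmd14 (chr2:61711444-61711743, plus strand) and Psmd10 (chrX:140956662-140956961, minus strand), among the members with the largest changes, each of which held 3 matches. In Psmd14 the last 2 overlap each other. The ETS motif, CCGGAAG on both strands, was in 13 member windows (36.1%) against 8.86% of all, in 3 of 13 genes called higher and 9 of 20 others. The interferon-stimulated response element, searched on both strands as GAAA, any 2 bases and GAAA again, was in 4 (11.1%) against 3.44%, those of Psmb3, Psmd4, Psmd9 and Psme1. A match is a description of the letters and no evidence of binding.
Psmd14: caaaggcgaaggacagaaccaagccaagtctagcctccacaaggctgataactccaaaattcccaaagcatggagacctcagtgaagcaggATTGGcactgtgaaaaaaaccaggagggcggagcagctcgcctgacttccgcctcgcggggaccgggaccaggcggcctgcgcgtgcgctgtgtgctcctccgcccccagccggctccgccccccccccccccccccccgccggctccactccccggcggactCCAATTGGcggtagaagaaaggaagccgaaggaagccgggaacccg
Psmd10: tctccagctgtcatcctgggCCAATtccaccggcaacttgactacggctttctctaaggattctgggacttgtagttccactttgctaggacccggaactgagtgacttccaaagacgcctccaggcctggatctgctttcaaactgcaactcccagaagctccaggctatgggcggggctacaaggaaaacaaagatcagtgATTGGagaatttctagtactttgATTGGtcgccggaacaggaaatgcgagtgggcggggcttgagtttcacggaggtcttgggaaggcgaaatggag

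In single pairs most proteasome genes leaned one way, and that way was not the same in every animal. More members were higher than lower in the tumor in 13 of 18 pairs. At least 30 of 40 members were higher in 9 pairs, and at least 30 were lower in 3. The pair of tumor 11 had 38 members higher (median difference 0.74), that of tumor 5 had 37 higher (median 0.78), and in tumor 5 the regulatory genes had a median of 1.11. The opposite pairs were those of tumor 20, with 36 members lower (median -0.54), tumor 9, with 36 lower (-0.49), and tumor 16, with 30 lower (-0.29). Over the same pairs the median difference of all genes lay between -0.06 and 0.06. The array median, over all clusters, moved too. From normal liver to tumor it fell in the pairs of tumor 11 (7.03 to 6.88) and tumor 5 (7.05 to 6.75). It rose in those of tumor 20 (6.91 to 7.15), tumor 9 (6.82 to 6.98) and tumor 16 (6.80 to 6.96). It also rose in the pairs of tumor 6 (6.91 to 6.92) and tumor 15 (6.78 to 6.84), with member medians below 0 (-0.07 and -0.14). In the pairs of tumors 3 and 12 it rose as well, with member medians above 0 (0.11 and 0.08). In every pair not named here the array median fell and the member median was above 0. The part of array scale in the pair differences was not tested. The regulatory genes spread most between pairs (SD of the pair medians 0.463, against 0.293 for the core and 0.305 for the activators).

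Gene by gene, the count of pairs was less one-sided than the group. The tumor was higher in at least 15 of 18 pairs for 6 members, Psma1, Psmc2, Psmd7, Psmd8, Psmd9 and Psmd14, which is 15% of the 40 against 10.2% of all genes. No member was lower in at least 15 pairs, as 7.28% of all genes were. In a fit of the 18 pairs with a fixed block for each animal, limma called 7 members higher, 17.5% against 12.6% of all genes. These were Psma1, Psmd5, Psmd8, Psmd9, Psmd10, Psmd14 and Psme3, with adjusted p between 0.00261 and 0.0427. The 8 calls lost there were Psmb4, Psmb5, Psmb7, Psmc2, Psmc4, Psmd1, Psmd2 and Psmd7, with Psmb5 at 0.44 (adjusted p = 0.109) and Psmc2 at 0.38 (adjusted p = 0.0578). The backgrounds for the pairs are shares of all genes. None was computed for the brighter genes, whose share in the main fit was the larger one (29.8% against 17.9%). Whether the members exceed genes of like brightness in the pairs was therefore not tested.

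**Figure D3:**
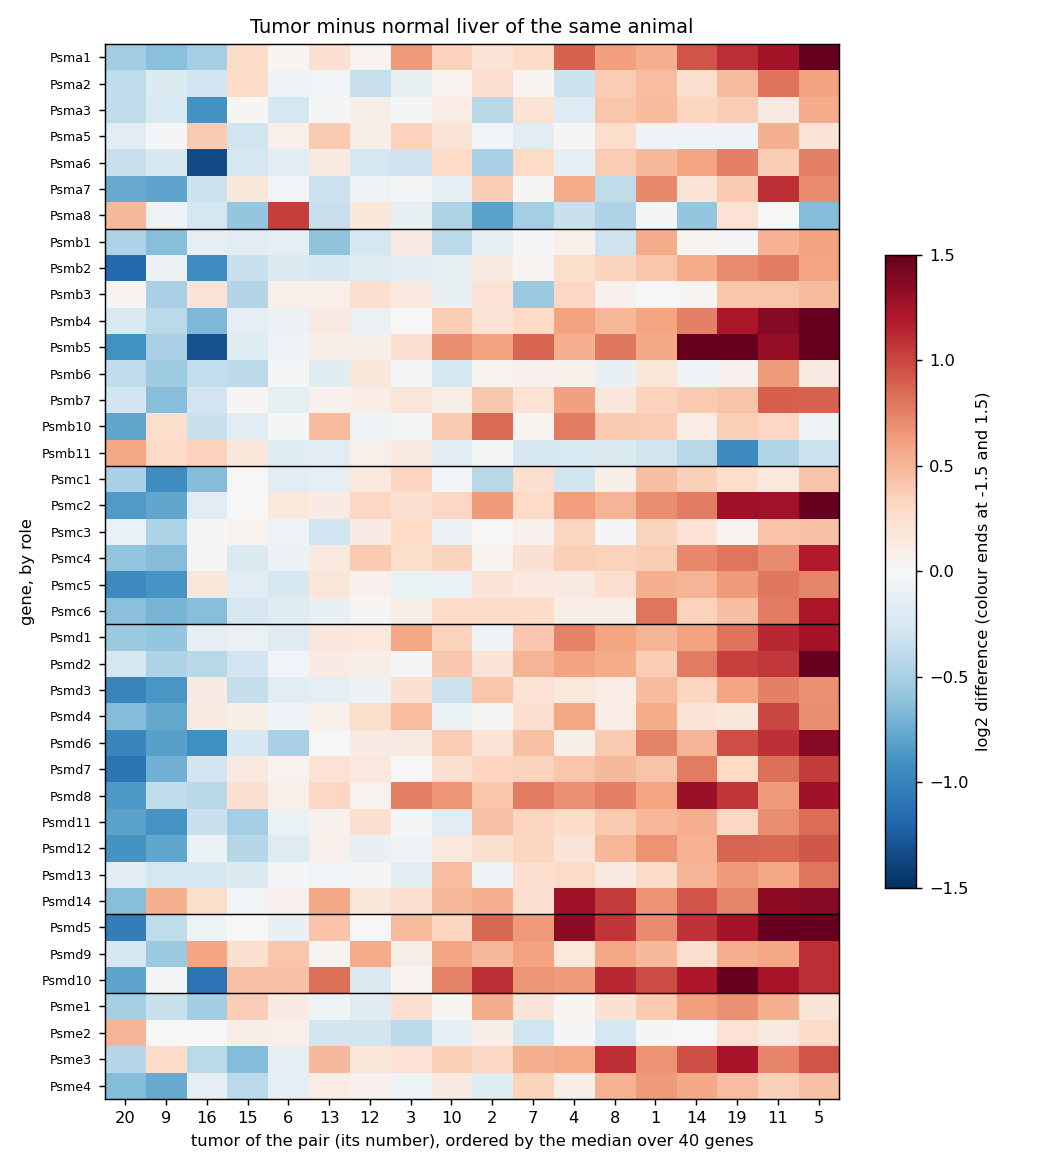
Tumor minus normal liver of the same animal, as a log2 difference (colour), for 40 proteasome genes in rows by role and 18 pairs in columns, ordered by the median over the 40 genes. The columns of tumors 20, 9 and 16 are mostly blue (lower in the tumor) and those of tumors 5 and 11 mostly red, while Psma8 is lower in 14 pairs.

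The normal livers themselves differed in these genes. The median deviation of the 40 genes from the mean of the normal livers ran from -0.44 to 0.52 over normal livers (SD 0.254) and from -0.67 to 0.58 over tumors (SD 0.251), with medians of -0.01 and 0.21. It was above 0 in 25 of 29 tumors and in 14 of 29 normal livers. For the regulatory genes it ran from -0.47 to 0.61 in normal liver and from -0.82 to 0.74 in tumors, so that the groups overlapped widely. The 5 pairs with the largest median difference (tumors 5, 11, 19, 14 and 1) had normal livers at -0.35, -0.21, -0.12, -0.26 and -0.34 and tumors at 0.39, 0.55, 0.45, 0.21 and 0.15. They were chosen by a difference that holds both values, so these levels are a description. In the pair of tumor 16 the normal liver was at 0.34 and the tumor at 0.06. Array scale differed among the normal livers too. Normal liver 18, the lowest at -0.44, had an array median of 7.06. Normal liver 26, the highest at 0.52, had one of 6.81. Normal liver 27 was at 0.33 with an array median of 6.98. The part of array scale in these deviations was not tested.

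**Figure D4:**
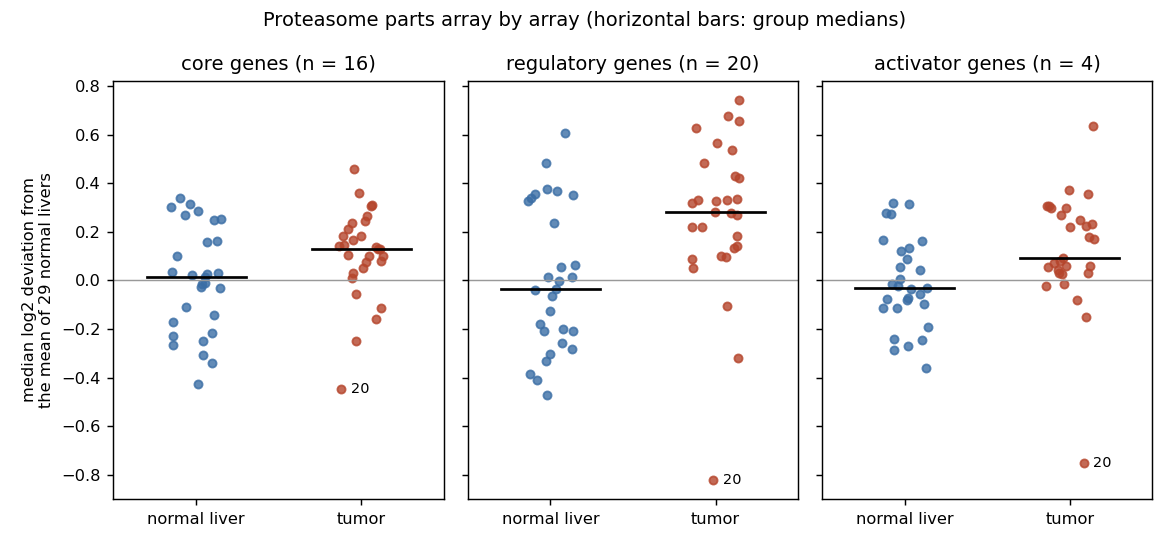
Median log2 deviation of the core, regulatory and activator genes from the mean of the 29 normal livers (vertical axis) in each array (points), with bars at the group medians. Most tumors sit above 0 for the regulatory genes (median 0.28), and tumor 20 is the lowest array in each panel.

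Some tumors carried many of the genes beyond the normal range. Tumor 11 had 21 of 40 members above the highest normal liver, tumor 28 had 16 and tumor 5 had 15, whereas the median tumor had 2. Over all genes the share above the highest normal liver ran from 0.676% to 19.4% with a median of 6.21%, and over members from 0% to 52.5% with a median of 5%. Tumor 20 had 21 members below the lowest normal liver, with medians of -0.45 in the core, -0.82 in the regulatory particle and -0.75 in the activators. Tumor 9 had 8 members below the lowest normal liver. These were 52.5% of members in tumor 20, against 14.5% of all genes there. In tumor 9 they were 20% of members, against 14.9% of all genes. Of the 40 genes 36, or 90%, were above the highest normal liver in at least 1 tumor, as were 61.2% of all genes. The groups overlapped in each of the 40, as in all 22180 genes. The spread was larger in tumors for 26 of 40 members, or 65%, beside 67.4% of all genes.

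Tumors 9 and 20 weighed on the counts, and leaving them out was chosen after seeing the data, except for tumor 9 alone. Without tumor 20 limma called 23 members higher, 57.5% against 20.4% of all genes. Without tumor 9 it called 20, or 50%, against 18.6%, and without both 28, or 70%, against 21.5%. The calls gained without tumor 20 were Psmb10, Psmc3, Psmc5, Psmc6, Psmd4, Psmd6, Psmd12 and Psme1, and Psmb11 was then called lower (-0.15, adjusted p = 0.0251). With array weights, which give such arrays less influence, 30 members were higher, or 75%, against 24.1%. Centring each array on its median gave 19 higher against 21.1% of all genes, and 0 lower (0 also at an unadjusted limma p under 0.05) against 7.79%. Among animals without a pair 6 members were called higher, 15% against 5.34%. These were Psma1, Psmc2, Psmc5, Psmd5, Psmd8 and Psmd10, and Psmd14 (0.52, adjusted p = 0.0975), Psme3 (0.36, adjusted p = 0.125) and Psmd9 (0.18, adjusted p = 0.434) were not called there. Without the 7 arrays against the sex label 13 were higher, with Psmb7 (0.18, adjusted p = 0.0541) and Psmd7 (0.19, adjusted p = 0.104) lost. Psma1, Psmd5, Psmd8 and Psmd10 were the 4 members that kept their call under all 15 alternatives to which each gene was put. The backgrounds of these alternatives are shares of all genes, and none was computed for the brighter genes under them.

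In tissue RNA, fewer cells of a type and less RNA per cell cannot be told apart. Some markers of cell types moved with the tissue label, beside 17.9% of all genes called higher and 14.3% called lower. All 5 measured markers of dividing cells rose (median change 0.96). Their mean log2 level ran from 7.32 to 8.87 over normal livers and from 7.69 to 10.06 over tumors, Mki67 going from 8.05 ± 0.61 to 9.11 ± 0.89 (SD, n = 29 each). Of 6 hepatocyte markers 2 fell, Apoa2 and Hnf4a, with a mean level of 11.79 to 12.66 over normal livers and 8.30 to 12.46 over tumors. Of 5 macrophage markers 2 fell and 1 rose, with a mean level of 8.55 to 11.15 over normal livers and 7.79 to 10.74 over tumors. Of 4 endothelial markers 2 fell and 1 rose (9.13 to 10.31 and 7.51 to 10.29). Of 7 T and natural killer cell genes 1 rose, Cd4, with a mean level of 6.49 to 7.77 over normal livers and 6.28 to 9.86 over tumors. None of 3 B cell markers was called, but their mean level ran from 6.35 to 8.62 over normal livers and from 6.41 to 11.76 over tumors. Of 3 markers for stellate cells 1 rose and 1 fell, and of 3 for cholangiocytes 2 fell. Ptprc had a change of 0.25 (SE 0.18, adjusted p = 0.288). The part of these cells in the proteasome changes was not tested, beyond the relations to Mki67 and Ptprc given next. In tumors 28, 11 and 2, with the highest medians of the 40 genes, Mki67 was at 7.62, 8.16 and 7.36, below the tumor mean, but in tumor 19, the next, it was at 10.50. In tumor 20 it was 9.76.

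Across the tumors of 28 animals 8 relations between genes were computed, each with a two-sided permutation test of 100000 resamples and Benjamini-Hochberg adjustment. Psmb10 followed the immunoproteasome gene Psmb8 (Pearson r = 0.604, permutation p = 0.0004, adjusted p = 0.002; Spearman rho = 0.629, permutation p = 0.00056, adjusted p = 0.00448). Without the 2 tumors farthest from the median of Psmb10 the r was 0.511, and it passed there too (permutation adjusted p = 0.0213). Psmb5 followed Psmd1 (r = 0.654, permutation p = 0.0005, adjusted p = 0.002; rho = 0.555, permutation p = 0.00258, adjusted p = 0.0103), with r = 0.538 without the 2 farthest tumors, but without tumor 20 the r of 0.433 did not pass (permutation adjusted p = 0.0656) while the rho of 0.504 did (permutation adjusted p = 0.0211).

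The relation of Psmb10 to Psmb5 rested on single tumors. Its r was 0.580 (permutation p = 0.0023, adjusted p = 0.0058) and its rho 0.202 (permutation p = 0.299, adjusted p = 0.479), and r was 0.163 without the 2 farthest. The r of Psmb5 to Nfe2l1 was 0.610 (permutation p = 0.0029, adjusted p = 0.0058; rho = 0.382, permutation p = 0.0447, adjusted p = 0.0894) and 0.417 without the 2 farthest (permutation adjusted p = 0.0686). Without tumor 20 the r was 0.283 (permutation adjusted p = 0.244) and the rho 0.311 (permutation adjusted p = 0.229), and neither passed. With each array centred on its median the r was 0.721 (permutation adjusted p = 0.000427; rho = 0.583, permutation adjusted p = 0.0036). Centring subtracts the same number from both genes of an array, and r was larger with it for every relation computed. The part of this shared term in r was not tested. Psmb10 and Ptprc had r = 0.354 (permutation p = 0.0658, adjusted p = 0.105) and rho = 0.494 (permutation p = 0.00805, adjusted p = 0.0215), and r = 0.602 without the 2 farthest (permutation adjusted p = 0.008). Without tumor 9, the array of highest Ptprc, neither passed (r = 0.262, permutation adjusted p = 0.296; rho = 0.443, permutation adjusted p = 0.0586). Without tumor 20 both passed, with r = 0.544 (permutation adjusted p = 0.0138) and rho = 0.601 (permutation adjusted p = 0.00576). Both also passed without tumors 9 and 20, with r = 0.493 (permutation adjusted p = 0.0432) and rho = 0.561 (permutation adjusted p = 0.0149). Psme1 and Psme2, whose proteins form one ring, had r = -0.05 (permutation p = 0.802, adjusted p = 0.802) and rho = 0.02 (permutation p = 0.939, adjusted p = 0.939). With each array centred on its median their r was 0.347 (permutation adjusted p = 0.0929). Neither Psme3 (r = -0.09, permutation p = 0.632, adjusted p = 0.802; rho = -0.10) nor Psmd10 (r = -0.05, permutation p = 0.785, adjusted p = 0.802; rho = -0.05) followed Mki67. No batch is given in the labels, so no relation could be computed within batches.

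**Figure D5:**
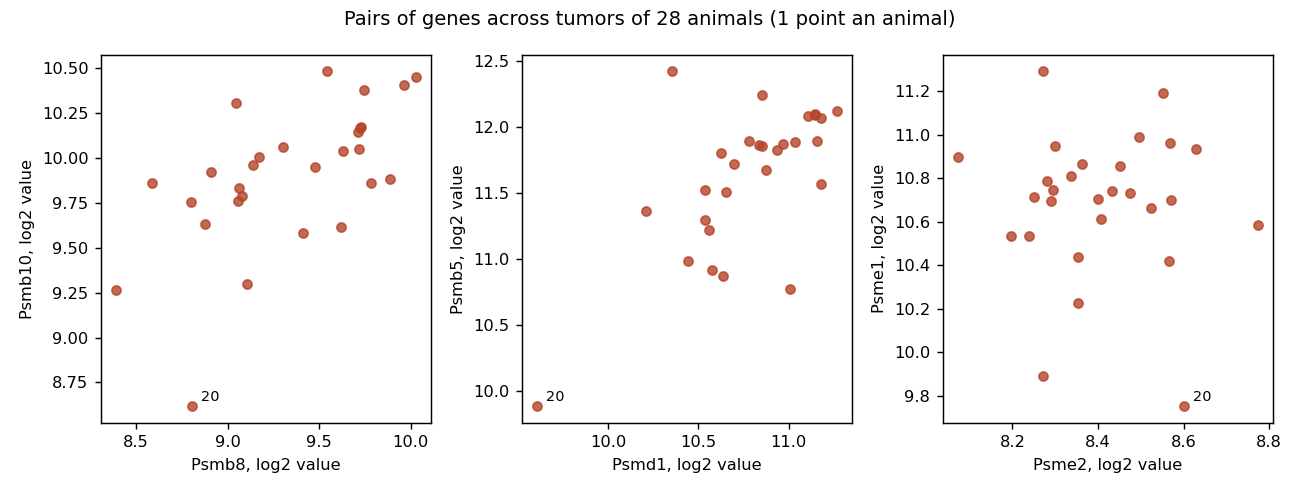
Log2 values of Psmb10 against Psmb8, Psmb5 against Psmd1 and Psme1 against Psme2 across tumors (1 point for each of 28 animals). The first 2 panels rise (r of 0.604 and 0.654), the third does not (r of -0.05), and tumor 20 is labelled in each.

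Of 6 measured genes that assemble or inhibit the core, 5 rose (median change 0.28), beside the 17.9% of all genes and 29.8% of brighter ones. The alpha ring chaperones Psmg1, Psmg2 and Psmg4 rose by 0.26, 0.33 and 0.21, Pomp, which matures the core, by 0.37 (SE 0.10, adjusted p = 0.00350), and the regulator Psmf1 by 0.30, while Psmg3 had a change of 0.00 (SE 0.05, adjusted p = 0.992). Of 12 other measured genes of the particle or of proteins associated with it 8 rose (median 0.24), against the same background. None of these is among the regulatory genes counted above. The largest were Uchl5, a deubiquitinase of the regulatory particle (1.82-fold, log2 change 0.86, SE 0.13, adjusted p = 9.45e-07, 15 of 18 pairs), and Zfand2a, a stress-induced partner of the particle (1.78-fold, 0.83, SE 0.12, adjusted p = 2.04e-07, 18 of 18 pairs). In 16 tumors Uchl5 was above the highest normal liver. Usp14, the other deubiquitinase bound to the particle, rose by 0.58 (log2, SE 0.10, adjusted p = 8.78e-06), and Ecpas, Ube3c, Txnl1, Ubqln2 and Ubqln4 rose by 0.20 to 0.27. Sem1 (-0.005, SE 0.07, adjusted p = 0.964), Zfand5, Rad23b and Ubqln1 were not called.

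Of 5 measured genes that control proteasome transcription 1 rose, a share near the background. It was Nfe2l1 (1.14-fold, log2 change 0.19, SE 0.07, adjusted p = 0.0354). Its relative Nfe2l2, the regulator of antioxidant genes, was not called (0.08, SE 0.10, adjusted p = 0.580), nor were Ngly1, Vcp and Akirin2. Uba6, the measured ubiquitin-activating enzyme, rose by 0.25 (SE 0.09, adjusted p = 0.0256). Of 6 immunoproteasome and interferon genes 2 rose, also near the share of brighter genes, Psmb8 (1.26-fold, 0.33, SE 0.09, adjusted p = 0.00391) and Psmb9 (1.25-fold, 0.33, SE 0.12, adjusted p = 0.0260), and Tap1, Tap2, B2m and Irf1 were not called. Some other genes of these lists were not analysed here.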

How the data were processed

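Total RNA of liver was hybridized to 58 arrays. The authors deposited log2 values, 1 per cluster and array, and the submitters' processing notes name Affymetrix Expression Console as the tool. Version, algorithm and build: not given in the sources used here. No raw scans were used. Of 41345 clusters 23521 carried 1 symbol in the platform table, and only these were used.

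Tumors were compared with normal liver over all 22180 genes in limma 3.58.1 (statmod 1.5.0, R 4.3.3), with the animal as a random block (block correlation 0.145), a trend in eBayes and Benjamini-Hochberg adjustment. Calls needed an adjusted p under 0.05. Permutation tests used scipy 1.17.1. Pairs come from animal names in the titles. With a looser reading of these names as the block, limma called 15 members higher and 1 lower. Deviations from the mean of each tissue were checked: r had a median of 0.241 within animals, over 0.1 in 15 of 18 pairs, and of -0.02 between animals. Limma p-values set each change against the residual spread between these arrays. Permutation p-values come from shuffling the values of 1 gene across animals.

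On simulated data for this comparison (22180 genes, 100 changed per size), 50% of log2 changes of 0.25 and 83% of 0.5 were recovered. The members, the gene lists and the tests were chosen with earlier results of these data known. In each role the 3 members of smallest adjusted p and those of largest and smallest change were named, with a fixed set of others. Alternatives covered scaling, brightness, clusters, pairing, sex, weights and single arrays.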

Additional observations from a re-analysis of the deposited data

How the results depend on the processing

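With all arrays 15 of 40 members were called higher and 1 lower. Higher calls numbered 7 in the 18 pairs alone (replicate block by animal), 6 in animals without a pair, 30 with array weights, 23 without tumor 20 and 28 without tumors 9 and 20, and between 13 and 20 under the other alternatives. Lower calls numbered 0 with arrays centred on the median, with quantile normalization, in the pairs alone, without the arrays against the sex label (limma, 0 also at an unadjusted p under 0.05 in these 4) and in animals without a pair (1 unadjusted). They numbered 0 among brighter genes only too, where Psma8 and Psmb11 were not tested, so that this count says nothing about their change. They numbered 2 with sex as a covariate, with array weights, without tumor 20 and without tumors 9 and 20. Leaving out each of 58 arrays in turn gave 14 to 23 higher and 0 to 2 lower calls. Only tumor 20 moved the higher count by over 1.5 times, 14 called members were never lost, and Psmd7 was lost 19 times. Psmb10 and Psmb5 had r = 0.163 without the 2 farthest tumors, 0.313 without tumor 20 and 0.375 without tumors 9 and 20. Psmb5 and Nfe2l1 had 0.417, 0.283 and 0.255 in the same order, and none of these passed. Psmb10 and Ptprc had 0.602, 0.544 and 0.493 in the same order, and each of these passed. Their r was 0.262 without tumor 9 alone, which did not pass, and there rho (0.443) no longer passed. Psmb5 and Psmd1 had 0.433 without tumor 20 and 0.414 without tumors 9 and 20. Array weights, the removal of tumor 20 and that of tumors 9 and 20 raised the higher count by over 1.5 times, and the cause was not tested. The medians of core, regulatory and activator genes stayed above 0 under every alternative run. The alternatives that leave out tumor 20, tumors 9 and 20, or each array in turn were chosen after seeing the data. Simulated recovery was 50% at a log2 change of 0.25. Only 100 genes per size were changed there, while 3964 genes were called higher here, so recovery in these data may differ. Psmb7 (0.20) and Psmd7 (0.21) were called, but other members with small changes could be missed.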
